A study of Saccharomyces cerevisiae with 8 samples.

Results

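Gcn4 is the yeast transcription factor that switches on genes of amino acid synthesis, and the glycine response of a strain without it was set here against that of the parent strain. Members were chosen by array title. They are 3 of the 8 spotted arrays of the series: 1 array of the gcn4 deletion strain (given in the labels as Y00249) and 2 arrays of BY4741, replicates 1 and 3. Channel 1 of an array held RNA from a minimal medium culture supplied with 10 mM glycine, and channel 2 held RNA of the same strain on minimal medium alone, both from steady state cultures in early log phase. BY4741 is the haploid laboratory strain from which the yeast deletion collection was made. It is known to lack HIS3, LEU2, MET17 and URA3, and the deletion strains derived from it share this background. The gcn4 strain is 1 member of that collection, and nothing in the labels says that arrays of a strain came from separate cultures. The title of BY4741 replicate 3 also contains the gene name zap1, and the array was kept in BY4741, where the start of its title and its source name place it.

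Gcn4 is a leucine zipper activator. Its translation rises when amino acids run short, because the sensor kinase Gcn2 slows initiation elsewhere, and it then activates genes in nearly every amino acid pathway. Glycine feeds one-carbon metabolism: the mitochondrial glycine cleavage system (GCV1, GCV2, GCV3 and LPD1) breaks it down and hands a one-carbon unit to tetrahydrofolate, which supplies purine, methionine and thymidylate synthesis. The one-carbon and purine genes also answer to the activators Bas1 and Bas2, and Bas1 and Gcn4 recognise the same core sequence.

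Every value below is the log2 of a channel ratio, averaged over the spots of a gene and centred on the median gene of its array, so 0 is the middle gene. A difference is the gcn4 value minus the mean of both BY4741 arrays. The sources used here do not state which channel is on top. Glycine is known to induce the glycine cleavage genes, which are negative here, so negative likely stands for more RNA in the glycine culture. This is not settled: turning every array would change the sign of every value and difference. Across genes, which are not independent replicates, the gcn4 array correlated with BY4741 replicate 1 at r = 0.636 and with replicate 3 at r = 0.335, and the BY4741 arrays with each other at r = 0.391. BY4741 replicate 1 and bas1 replicate 1 opposed each other, at r = -0.35. The SD over genes was 1.11 on the gcn4 array, 0.972 on BY4741 replicate 1 and 0.379 on replicate 3. The parent arrays therefore differed in spread. The array titles come in 2 wordings: those of gcn4, BY4741 replicate 1, bas1 replicate 1 and bas2 replicate 1 spell out steady growth, and those of the other arrays, BY4741 replicate 3 among them, end in ss. The labels do not say what the wording stands for. Differences from BY4741 replicate 1 are those within the gcn4 array's wording. For bas2 replicate 1 the labels conflict, since BY4741 is entered as its source although the array is titled and described as bas2. The 2 spots of a gene are neighbours on the slide list and had an SD of 0.276 on the gcn4 array, 0.194 on BY4741 replicate 1 and 0.150 on replicate 3. Of 12800 spots, 752 on the gcn4 array, 99 on BY4741 replicate 1 and 80 on replicate 3 had no value.

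The deleted gene itself was checked first. GCN4 (YEL009C) had no value on either spot of the gcn4 array. It had a value on all 7 other arrays, at 0.53 and 0.11 in BY4741 and between 0.38 and 1.16 in the bas1, bas2 and shm2 strains. Of 3223 genes with a value on all 7 others, 55 (1.71%) had none on the gcn4 array. URA3, deleted in the parent too, was another of these 55. Of the other parental deletions, HIS3 stood at 0.10 on the gcn4 array against -0.18 and -0.46 in BY4741, and LEU2 at -0.83 against -1.23 and -0.29. MET17, the enzyme that joins sulfide to O-acetylhomoserine, stood at -2.80 on the gcn4 array, with spots at -3.95 and -1.65, against -0.11 and -0.03 in BY4741. A ratio within 1 strain gives no transcript level, so these values do not measure the deletions.

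Across 5353 genes with a value on all 3 arrays, 0 (0.0%) passed limma's moderated test of gcn4 minus BY4741 at an adjusted p under 0.05, and 188 (3.51%) had an unadjusted p under 0.05. That fit takes its spread from the replicated strains of all 8 arrays and assumes that the gcn4 array varies like them. Each replicated pair joins 1 array of each title wording. The spread, and the standard errors and p-values built on it, therefore include any difference between the wordings. With the spread of the BY4741 pair alone, 22 genes passed, 20 with a lower value in gcn4 and 2 with a higher one. Many of these 22 genes lacked a value for at least 1 spot on the 3 arrays. As a plain description, the gcn4 value lay above both BY4741 arrays for 1575 genes (29.4%) and below both for 1803 (33.7%). It lay at least 1 log2 unit above both for 102 genes (1.91%) and at least 1 below both for 372 (6.95%). Of 5225 genes with every spot measured on the 3 arrays, 96 (1.84%) lay at least 1 above both and 321 (6.14%) at least 1 below, and every gcn4 spot was above every BY4741 spot for 1244 (23.8%) and below for 1415 (27.1%). These shares are the background for every list below. No gene named here passed in the 8-array fit, where their adjusted p ran from 0.487 to 1.00, so "above" and "below" describe these 3 arrays only.

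**Figure D1:**
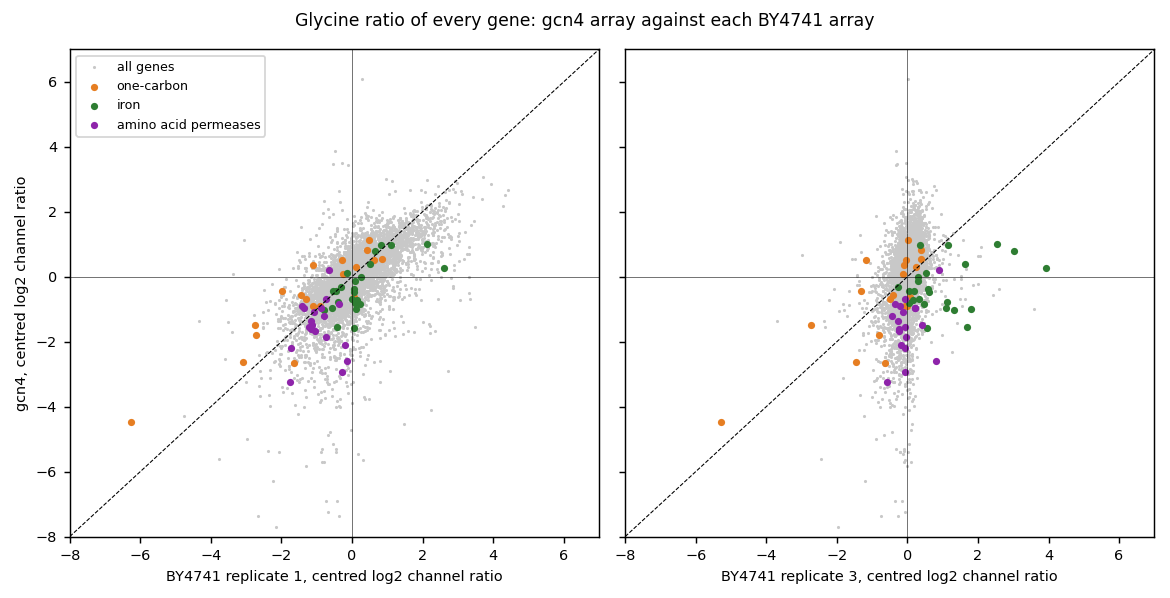
Centred log2 channel ratio (with glycine and without, direction as deposited) of each gene on the gcn4 array (vertical axis) against BY4741 replicate 1 (left) and replicate 3 (right). Grey points are all genes, coloured points are one-carbon, iron and amino acid permease genes, and the dashed line marks equal values. GCV1 is the point at the lower left at -4.46 on the gcn4 array, and most iron and permease genes lie below the line in both panels.

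Glycine cleavage genes that stood far from 0 in the parent did so on the gcn4 array too. GCV1 (YDR019C), the aminomethyltransferase of the cleavage system, stood at -4.46 on the gcn4 array and at -6.27 and -5.27 on BY4741 replicates 1 and 3, a difference of 1.31 ± 0.72 (limma SE; the gcn4 strain has 1 array). The gcn4 spots of GCV1 carried low deposited ratios, 0.03 and 0.048, and GCV1 had no value on bas1 replicate 2 or bas2 replicate 2. GCV3 (YAL044C), which carries the lipoate arm, stood at -1.50 against -2.76 and -2.73, a difference of 1.25 ± 0.49. Both remained negative in gcn4 but nearer 0 than on either parent array, spot by spot. GCV2, the glycine decarboxylase subunit, went the other way, at -2.65 in gcn4 against -1.65 and -0.64, but its gcn4 spots were far apart, at -3.85 and -1.45, and overlapped the parent's. LPD1, which other enzymes share, stood at 0.08 against -0.24 and -0.12. The 4 subunits thus did not keep a common order between the strains.

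Among the enzymes that take up and pass on the one-carbon unit, SHM2, the cytosolic serine hydroxymethyltransferase, stood at -2.63 in gcn4, between its parent values of -3.08 and -1.47. The mitochondrial enzyme SHM1 stood at -0.56 against -1.46 and -0.42, and the trifunctional folate enzyme ADE3 at -1.80 against -2.73 and -0.80. For these 3 genes the gcn4 value lay within the spread of the parent, and with arrays scaled to a common spread the differences of SHM2 and ADE3 changed sign, to 1.34 and 0.89. MTD1, a cytosolic methylenetetrahydrofolate dehydrogenase, was positive in gcn4 (0.53) and negative in BY4741 (-0.29 and -1.17), a difference of 1.26 ± 1.21. DFR1, dihydrofolate reductase, stood at 0.35 against -1.11 and -0.10, and MET6, which methylates homocysteine to methionine, at -0.43 against -1.98 and -1.32. All spots of MTD1, DFR1 and MET6 lay above those of both parent arrays. Of 19 one-carbon genes, 9 (47.4%) lay above both parent arrays and 2 (10.5%) below both, against 29.4% and 33.7% over all genes. Their median difference was 0.21, against -0.01 over all genes. That median was 0.60 at a common spread and 0.44 against BY4741 replicate 1 alone.

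Purine synthesis genes lay on both sides of the parent, in shares near those over all genes. ADE1, ADE8 and ADE13, enzymes of the pathway to AMP, lay above both parent arrays. ADE1 stood at -0.88 in gcn4 against -1.66 and -1.67, ADE8 at -0.80 against -2.18 and -1.14, and ADE13 at 0.48 against -0.29 and -0.70. Their differences were 0.78 ± 0.99, 0.85 ± 0.77 and 0.98 ± 0.52, each smaller than 2 standard errors. The AICAR transformylase genes, whose products use a folate one-carbon unit, lay below: ADE17 at -2.86 against -2.32 and -0.98 (its difference was 0.19 at a common spread), and ADE16 at -1.53 against -1.21 and 0.02. So did IMD2, IMD3 and IMD4, which encode IMP dehydrogenase, the first step to guanine nucleotides. IMD2 had gcn4 spots at -1.01 and -0.99 and parent values of -0.32 and 0.92 (difference -1.31 ± 0.74), IMD3 at -0.70 against -0.17 and 0.52, and IMD4 at -1.09 against -0.46 and 0.30. The IMD genes are close in sequence, so their spots may share RNA. On the 5 arrays of other deletion strains IMD2 stood between 0.89 and 2.68. Over the list, 4 of 13 genes (30.8%) lay above both parent arrays and 5 (38.5%) below, near the 29.4% and 33.7% over all genes. The median difference was -0.01, which became 0.25 at a common spread.

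**Figure D2:**
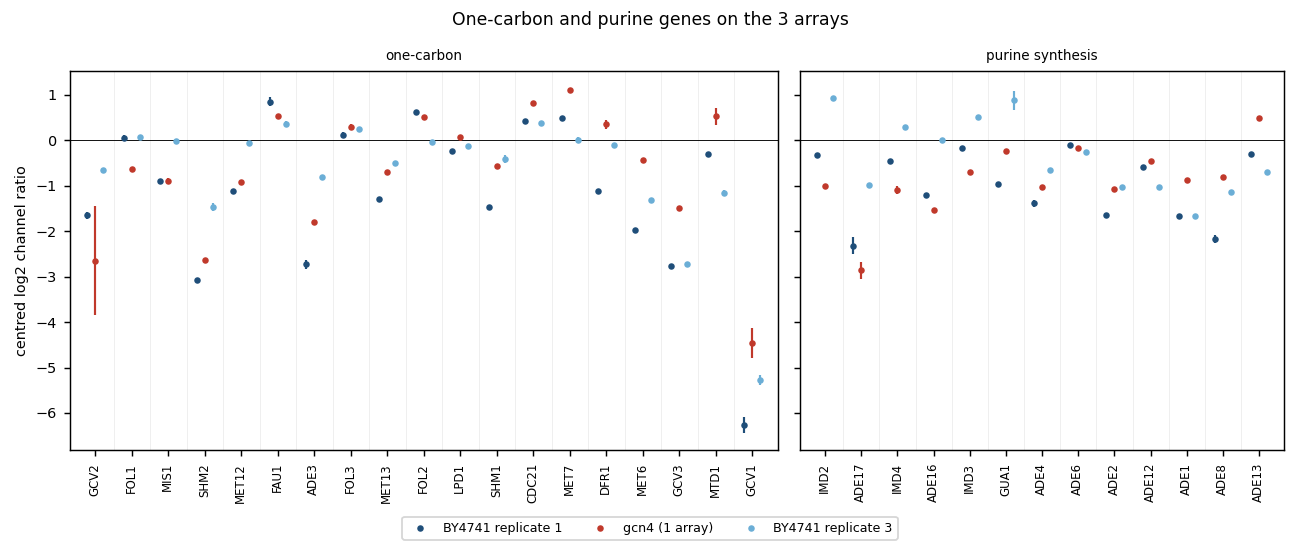
Centred log2 channel ratio of the 19 one-carbon and 13 purine genes on the gcn4 array (red) and on BY4741 replicates 1 and 3 (dark and light blue), ordered by the difference within each list. Points are gene means and bars run from the lowest to the highest spot. MTD1, GCV3 and GCV1 stand above both parent arrays at the right, and the long bar of GCV2 shows its discordant spots.

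Genes of amino acid synthesis, the textbook targets of Gcn4, did not move as 1 group. Of 60 genes in 7 pathway lists, 58 had a value on the 3 arrays. The gcn4 value lay above both parent arrays for 23 (39.7%) and below both for 11 (19.0%), against 29.4% and 33.7% over all genes. Of these 58, 0 lay at least 1 unit above both and 0 at least 1 below, against 1.91% and 6.95% over all genes. Their median was -0.27 on the gcn4 array, -0.51 on BY4741 replicate 1 and -0.29 on replicate 3. The 3 medians were close to each other, and the median difference was 0.09 (0.29 at a common spread, 0.22 against replicate 1 alone).

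Counts are given by pathway, with no test between pathways, beside 29.4% above and 33.7% below over all genes. In the histidine list 5 of 7 genes lay above both parent arrays and 0 below, and in the lysine list 5 of 8 and 0. HIS3, deleted in both strains, is 1 of the 5, and without it the count was 4 of 6. In the arginine list it was 5 of 7 above and 1 below, and in the aromatic list 5 of 13 and 1. Of 11 branched-chain genes 1 lay above and 4 below, a share below close to that over all genes, and their median difference was 0.06 from replicate 1 and -0.69 from replicate 3. The deleted LEU2 was in neither count. Of 7 serine and glycine genes 1 lay above and 4 below. In the threonine and homoserine list 1 of 5 genes lay on each side.

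HIS4, a multifunctional histidine enzyme and a classic Gcn4 target, stood at -1.20 in gcn4, between -1.31 and -0.91 in BY4741. HIS5, the histidinol-phosphate aminotransferase, stood at 0.53 against 0.09 and -1.49, and HIS6 at 0.47 against -1.47 and 0.19. In both, the parent arrays lay farther from each other than the nearer one lay from gcn4. ARG1, argininosuccinate synthetase, stood at -1.27, between -1.90 and -0.84. ARG3, ornithine carbamoyltransferase, was at -0.25 against the close pair -1.18 and -0.98, a difference of 0.83 ± 0.49. ARG7, the ornithine acetyltransferase, was the arginine gene below both, at -0.51 against -0.10 and -0.07.

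LYS12, homoisocitrate dehydrogenase, stood at 1.45 against 1.15 and 0.49, and ARO7, chorismate mutase, at 1.74 against 1.30 and 0.07. Both were positive on all 3 arrays, though the difference of LYS12 became -0.07 at a common spread. On the branched-chain side, ILV2, the catalytic subunit of acetolactate synthase, stood at -2.09 against -1.52 and -0.18 (difference -1.24 ± 1.19). LEU9, an isopropylmalate synthase, stood at -1.62 against -1.22 and -0.30, and LEU1, isopropylmalate isomerase, at -1.10 against -0.61 and -0.59. For LEU1 the parent arrays lay close together and the gcn4 spots below them, but its difference became 0.25 at a common spread.

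**Figure D3:**
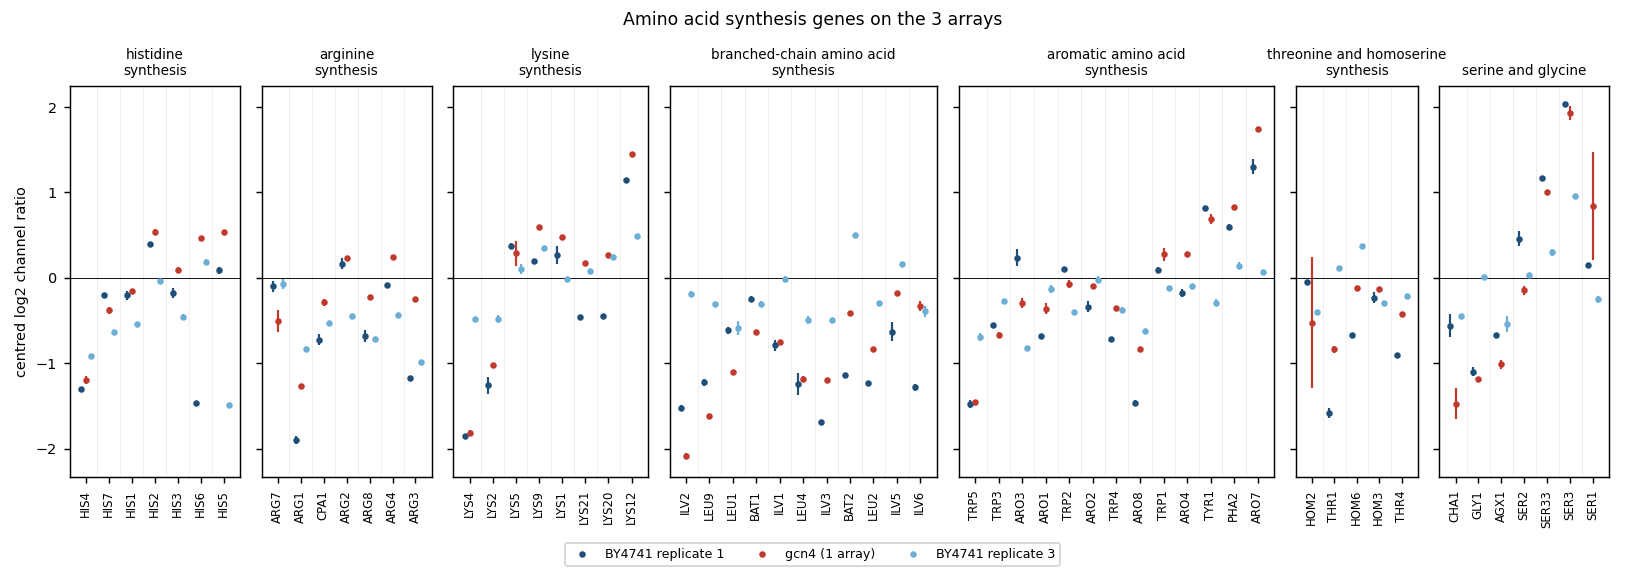
Centred log2 channel ratio of 58 amino acid synthesis genes in 7 lists on the gcn4 array (red) and BY4741 replicates 1 and 3 (dark and light blue), each list ordered by its difference. Points are gene means and bars span the spots. Red points lie above both blue points for 5 of 7 histidine genes and below both for 4 of 11 branched-chain genes.

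Of the genes that make or break down serine and glycine, SER3, phosphoglycerate dehydrogenase, was positive on all 3 arrays, at 1.93 in gcn4 and 2.03 and 0.96 in BY4741. SER1, phosphoserine aminotransferase, stood at 0.84 against 0.15 and -0.25, on spots of 0.21 and 1.47. GLY1, the threonine aldolase that makes glycine, stood at -1.18 against -1.10 and 0.01. CHA1, the catabolic serine and threonine deaminase, stood at -1.47 against -0.56 and -0.45, a difference of -0.97 ± 1.28. CHA1 was below both parent arrays by more than these differed from each other.

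Among vitamin B6 genes, SNZ1 (YMR096W), the synthase subunit that forms pyridoxal phosphate, stood at -4.35 and -3.69 in BY4741 and at -1.36 in gcn4, a difference of 2.66 ± 0.87 (unadjusted p = 0.0258 in limma's 8-array fit). SNZ2 stood at -0.70 against -3.56 and -2.22, a difference of 2.18 ± 2.07. In both genes every gcn4 spot lay above every parent spot by more than 1 unit. Elsewhere in the series SNZ1 stood at -3.23 in bas2 replicate 1, the array with the conflicting source name, at -4.03 in bas2 replicate 2, -0.34 and -2.07 in bas1 and 0.74 in shm2, so a value nearer 0 than the parent's was not seen in gcn4 alone. SNZ2 and SNZ3 are nearly identical in sequence and their spots may share RNA. SNZ3 stood at -0.89 against -1.98 and -0.75. SNO1, the glutaminase partner that is divergently transcribed next to SNZ1, went to the opposite side: -4.00 on both gcn4 spots, against -0.33 and -0.08. It had a difference of -3.80 ± 0.57 with an adjusted p of 0.892. Both gcn4 spots of SNO1 carried a low deposited ratio, 0.052, and SNO1 had no value on bas1 replicate 2 or bas2 replicate 2. The part of such low or missing spots in its difference was not tested. Of 6 SNZ and SNO genes, 3 lay above both parent arrays and 1 below, against 29.4% and 33.7% over all genes.

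Amino acid permeases leaned to 1 side. Of 19 with a value, 15 lay below both parent arrays and 0 above, against 33.7% below and 29.4% above over all genes, and 13 were separated spot by spot. Their median was -1.48 in gcn4, -1.06 and -0.07 in BY4741, and between 0.28 and 1.14 on the arrays of the other deletion strains. The median difference was -0.92, made up of -0.44 from replicate 1 and -1.39 from replicate 3. The largest differences were those of MUP3, a methionine permease (-2.61 against -0.14 and 0.82), and MMP1, the S-methylmethionine permease (-2.92 against -0.27 and -0.07). Neither MUP3 nor MMP1 had a value on bas1 replicate 2 or bas2 replicate 2. PUT4, the proline permease, stood at -3.24 against -1.75 and -0.57, and ALP1, a permease of basic amino acids, at -2.09 against -0.20 and -0.17. Gene length moved with these values. Over 4 bins of all genes, from the shortest to the longest, the median difference was 0.23, 0.18, -0.14 and -0.33, and the median length of the permease genes was 1812 bases against 1269 over all. With a length curve removed from each array the permease median was -0.66.

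Iron genes leaned the same way, with 19 of 24 below both parent arrays and 1 above, against 33.7% and 29.4% over all genes. In BY4741 many of them were positive, with list medians of 0.07 and 0.56, while the gcn4 median was -0.43. ARN1, a siderophore transporter, stood at -1.55 in gcn4 against -0.43 and 1.68, and FRE4, a ferric reductase, at -1.56 against 0.05 and 0.54. TIS11, an mRNA-binding protein that degrades transcripts of iron-using enzymes, stood at 1.00 against 2.11 and 2.53, a difference of -1.32 ± 0.53. FIT2, which encodes a mannoprotein that holds siderophores in the cell wall, had the largest difference of the list, 0.26 against 2.60 and 3.93. Both of its gcn4 spots carried a deposited ratio of exactly 1, which every spot of 47 genes approached within 0.003 on that array, against 6 genes on each parent array. Without such spots FIT2 had no gcn4 value. The list's median difference was -0.85, and -0.72 with the length curve removed; its genes had a median length of 1684.5 bases. In the fit with the replicate block, which rests on BY4741 replicate 1 and on 3168 genes, 15 of them iron genes, it was -0.26. With title wording as a block it was -0.44. Over all 24 iron genes the median difference from BY4741 replicate 1 was -0.39. The part of gene length in the permease and iron values was not tested further.

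**Figure D4:**
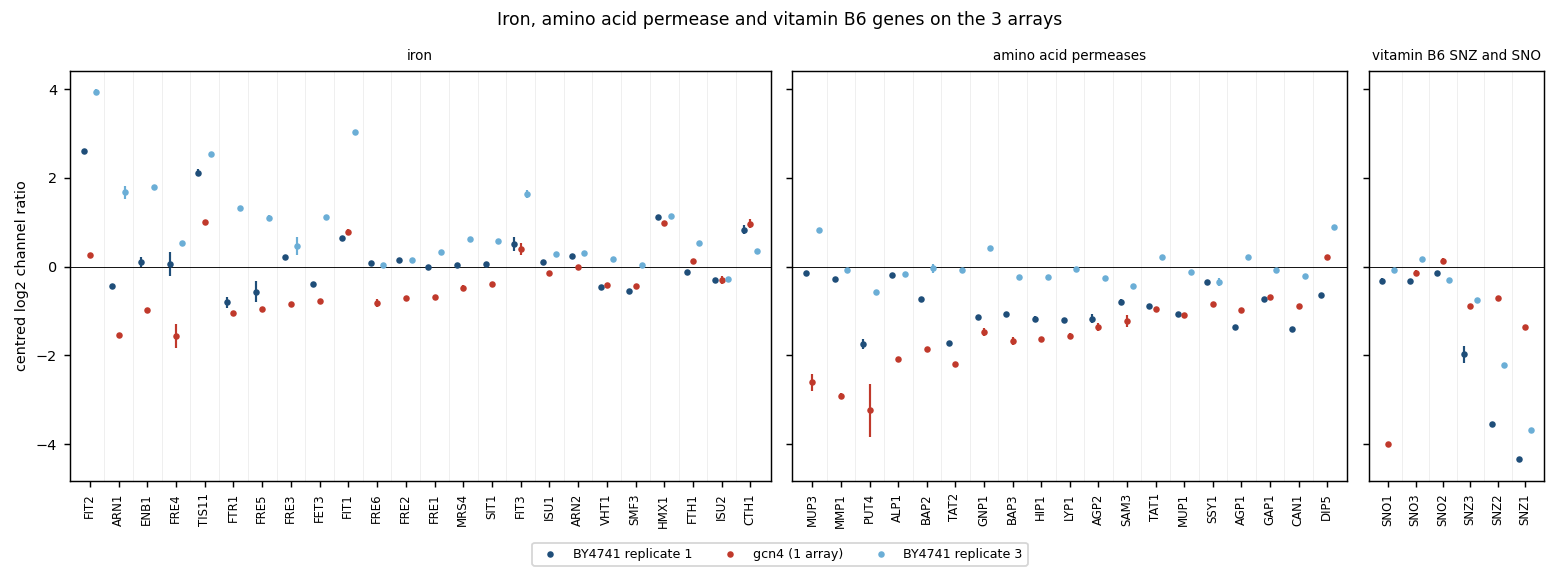
Centred log2 channel ratio of 24 iron, 19 amino acid permease and 6 vitamin B6 genes on the gcn4 array (red) and BY4741 replicates 1 and 3 (dark and light blue), ordered by difference within each list, with bars from the lowest to the highest spot. Red points are the lowest of the 3 for 19 iron and 15 permease genes, while SNZ1 and SNZ2 stand above both parent arrays and SNO1 below.

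Sulfate and methionine genes were below both parent arrays in 11 of 18 cases and above in 3, against 33.7% and 29.4% over all genes. Their median difference was -0.44. Over all 18 the median difference from BY4741 replicate 1 was -0.18. The fit with the replicate block, which rests on that array, kept only 7 of these genes and gave 0.40. Without the deleted MET17 the count was 10 of 17 below, with a median difference of -0.41. SUL1, a sulfate permease, stood at -1.69 against -0.28 and 0.06, with all spots below the parent's. MET14, the APS kinase, was at -1.01 against 1.16 and 0.29, on discordant spots of -2.22 and 0.21. In the regulatory pathway of Gcn4 itself, 6 of 16 genes (37.5%) lay above both parent arrays and 6 (37.5%) below. These shares were near the 29.4% and 33.7% over all genes. GCN1, needed for Gcn2 to sense uncharged tRNA, stood at -3.24 in gcn4 (spots at -3.31 and -3.17) against 0.04 and -0.37. Its gcn4 spots carried low deposited ratios, 0.084 and 0.093, and it had no value on bas1 replicate 2 or bas2 replicate 2. GCN2 stood at 0.61 against 0.33 and -0.33.

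Ribosomal protein genes were on the positive side of the middle gene. Of 133 cytosolic ones, 126 were positive on the gcn4 array, with a median of 0.88, against 1.05 and 0.28 in BY4741. The gcn4 median lay between those of the parent arrays. The difference from replicate 1 had a median of -0.09 and that from replicate 3 of 0.60, so its sign rested on replicate 3, and at a common spread the median was -0.11. On the gcn4 array every spot of 17 cytosolic ribosomal protein genes carried a deposited ratio within 0.003 of 1, as did every spot of 10 of 16 glycolysis genes, out of the 47 such genes. RPL38 stood at 2.60 against 2.06 and 0.01, and RPS3 at 1.78 against 1.09 and 0.19. Mitochondrial ribosomal protein genes lay above both parent arrays in 39 of 64 cases and below in 4, against 29.4% and 33.7% over all genes. Their medians were 0.86 in gcn4 and 0.47 and 0.05 in BY4741. MRPL38 stood at 1.78 against -0.13 and 0.13, a difference of 1.78 ± 0.55, and MRPL22 at 1.51 against 0.23 and -0.33. These genes are short, with median lengths of 795 bases (cytosolic) and 706.5 bases (mitochondrial). With the length curve removed the median differences were 0.04 instead of 0.29 and 0.25 instead of 0.47.

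The median of the general stress genes was negative on all 3 arrays, at -0.56 in gcn4 and -0.66 and -0.57 in BY4741, though 8 of 29 genes were positive in gcn4. In gcn4, 12 of 29 lay above both parent arrays and 4 below, against 29.4% and 33.7% over all genes. HSP12, a membrane-stabilising heat shock protein, stood at 0.68 against 0.06 and -2.98. Its gcn4 value lay close to replicate 1 and far from replicate 3. SSA3, a stress-induced Hsp70, stood at -3.40 against -1.08 and -0.57.

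**Figure D5:**
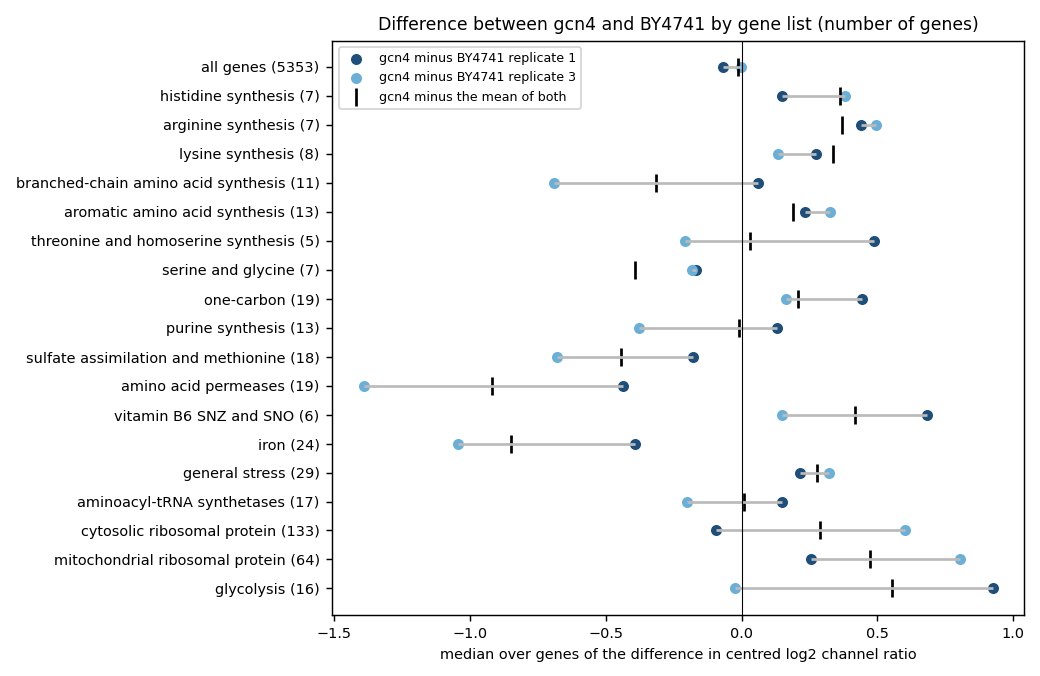
Median over the genes of each list of the difference in centred log2 channel ratio between gcn4 and BY4741 replicate 1 (dark blue), replicate 3 (light blue) and the mean of both (black bar), with the number of genes in brackets. Of the lists plotted, amino acid permease, iron, sulfate and methionine, and serine and glycine genes lie left of 0 for either parent array. Mitochondrial ribosomal protein, histidine, arginine, lysine, aromatic, one-carbon, vitamin B6 and general stress genes lie right of 0 for either. The cytosolic ribosomal protein, purine, branched-chain, threonine, aminoacyl-tRNA synthetase and glycolysis lists change side with the parent array chosen.

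The genes of the parent's response were then read on the gcn4 array, which had no part in choosing them. Of 30 genes at -1 or lower on both BY4741 arrays, 29 were negative in gcn4 and 21 stood at -1 or lower, against 2674 negative and 877 (16.4%) at -1 or lower among all 5353 genes. Of 19 genes at 1 or higher on both, 13 were positive and 8 stood at 1 or higher, against 2679 positive and 711 (13.3%) at 1 or higher among all genes. These 19 include YHR214C-B, YJR027W, YJR029W and YAR009C, all positive in gcn4. They are copies of the Ty1 element whose spots may share RNA, so they count as about 1 observation. Medians of the genes at -1 or lower were -1.51 in gcn4 and -2.16 and -1.35 in BY4741, and of those at 1 or higher 0.78 against 1.97 and 1.28. The genes were selected for extreme values on the BY4741 arrays and not on the gcn4 array. The medians therefore cannot tell whether the response was weaker in gcn4, and this was not tested. Over all 5353 genes, the BY4741 arrays had 1 sign and gcn4 the other for 570 (10.6%).

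Among genes with every spot measured and separated from the parent's, the 10 highest differences ran from 2.28 to 4.28. VEL1 stood at 3.87 against -0.49 and -0.34, and YOR387C at 3.48 against -0.54 and -0.29. These are near-identical copies whose spots may share RNA, so they count as 1 observation. High values of these genes were not confined to gcn4: on bas1 replicate 2, the array with the most missing spots, VEL1 stood at 4.01, YOR387C at 4.14, GLN3 at 6.05, SPR3 at 4.93 and YOL153C at 4.78. LOA1, an acyltransferase of lipid droplets, stood at 2.31 against -0.35 and 0.01, and GLN3, the activator of genes for poor nitrogen sources, at 1.84 against -0.66 and -0.34. NCE103, carbonic anhydrase, stood at 2.94 against 1.15 and 0.16. The other 5 were SNZ1, YOL153C, FSH3, SNO4 and SPR3, and the gcn4 spots of YOL153C (0.07 and 5.23), FSH3 (1.39 and 4.64) and SNO4 (-0.70 and 3.26) disagreed widely.

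The 10 lowest ran from -6.88 to -4.33: YIL171W, YMR084W, MHP1, ACK1, AAP1, MCO14, GAL2, SLU7, TDA8 and RRP14. The gcn4 spots of MHP1 (-7.70 and -3.73), MCO14 (-7.70 and -3.92) and RRP14 (-5.00 and -0.80) disagreed widely. The parent values of RRP14 were also apart, at 2.72 and 0.15. On bas1 replicate 2, SLU7 stood at 7.68, YMR084W at 5.65 and MCO14 at 4.97. On bas2 replicate 2, SLU7 stood at 5.08, MCO14 at 4.49 and MHP1 at 4.36. The others had no value on either of these arrays, except ACK1 at -0.03 and RRP14 at -2.56 on bas2 replicate 2. ACK1 stood at -5.72 in gcn4 against -0.80 and -0.08, a difference of -5.27 ± 0.57 with an adjusted p of 0.487 in the 8-array fit and 0.025 with the spread of the BY4741 pair. AAP1, an aminopeptidase, stood at -5.41 against -0.45 and 0.02, and GAL2, the galactose permease, at -5.17 against -0.53 and 0.04. Most such values correspond to low deposited ratios, which are given in steps of 0.001. They were 0.005 and 0.006 for the spots of YIL171W and 0.014 and 0.018 for those of ACK1. For GAL2 they were 0.02 and 0.027, and for RRP14 0.026 and 0.48. Low differences were also more common among genes with no value on bas1 replicate 2, the array with the most missing spots. Of 2002 such genes 4.5% had a difference of -2 or lower, against 2.42% of the other 3351. Channel signals were not analysed here, and the part of missing or near-zero spots in these values was not tested.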

How the data were processed

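The authors deposited log2 channel ratios per spot. The labels name a GenePix 4000B scanner and GenePix Pro 3.0 for spot analysis. For dyes, ratio direction, background and filters nothing is stated in the sources used here. The ratio behind a value is a multiple of 0.001 (within 0.01 of that step) for at least 99.9% of values on the 3 arrays compared, and the gene medians of these arrays, -0.26, 0.65 and 0.33, show that the deposited values were not centred. Of 12800 spots, 11138 had 1 gene symbol and 1662 none; RefSeq's gene table held the gene identifier of 11128 spots. Spots were averaged into 5539 genes and each array was centred on its median gene. The contrast gcn4 minus BY4741 was fitted with limma 3.58.1 in R 4.3.3 over all 8 arrays with 5 strain means (two-sided, Benjamini-Hochberg over 5353 genes, threshold 0.05). The fit was checked on simulated data with equal noise on every array, which does not cover arrays of unlike spread. P-values measure the spread between these arrays, whose number limits the precision. Of 25 gene lists, counts and medians are given with no test. The members and lists were chosen with earlier results of these data known. Named genes are members of the amino acid, one-carbon and purine lists and parental deletions, the 10 highest and 10 lowest differences with separated spots, and at most 4 genes of another list, those with the largest differences among genes with every spot measured. Lengths are gene spans of RefSeq R64. Promoter motifs were planned and not analysed here. Arrays of 1 title wording were treated as a block in an alternative. The alternatives tried are in the closing section.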

Additional observations from a re-analysis of the deposited data

Results flagged for a closer look

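Some named genes had 1 sign on both BY4741 arrays and the other sign on the gcn4 array; over all genes this held for 10.6%. None of their differences passed in limma's 8-array fit. With a negative sign in BY4741 and a positive one in gcn4, the differences were 0.27 for LPD1, 1.26 for MTD1, 0.95 for DFR1, 0.98 for ADE13 and 0.41 for HIS3. The same held for VEL1 at 4.28, YOR387C at 3.89, YOL153C at 2.86, SNO4 at 2.46 and GLN3 at 2.34. GCN3, a subunit of the initiation factor eIF2B, had 0.74, and PDC1, pyruvate decarboxylase, 0.81, but PDC1's gcn4 spots lay at a deposited ratio of 1. With a positive sign in BY4741 and a negative one in gcn4, they were -4.33 for RRP14, -1.86 for FRE4, -1.73 for MET14 and -0.92 for GSY1. The gcn4 spots of RRP14 (-5.00 and -0.80) and MET14 (-2.22 and 0.21) were discordant, as were those of YOL153C and SNO4.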

How the results depend on the processing

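With 1 gcn4 array, 2 parent arrays of unlike spread and no channel signals, the values describe these arrays. The 0 calls held in every fit except those over the gcn4 and BY4741 arrays alone and without bas1 replicate 2 and bas2 replicate 2, where 2 genes passed as higher and 20 as lower; in the fits with 0 calls, 77 to 200 genes had an unadjusted p under 0.05. Without bas1 replicate 2 and bas2 replicate 2, BY4741 is the only replicated strain. That fit and the one over the gcn4 and BY4741 arrays alone are therefore the same test. Without centring the median over all genes moved to -0.76, with 18 genes at least 1 above both parent arrays and 1229 below. List medians were then -0.54 (one-carbon), -0.76 (purine), -0.66 (amino acid synthesis), -1.67 (permeases), -1.60 (iron), -0.33 (vitamin B6), -1.19 (sulfate and methionine), -0.46 and -0.27 (cytosolic and mitochondrial ribosomal proteins) and -0.47 (stress). Gene differences that changed sign were LPD1 -0.48, SHM1 -0.37, ARG1 -0.65, LYS12 -0.12, SER3 -0.31, HIS3 -0.33, SNZ3 -0.27, GCN3 -0.011 and GCN2 -0.14. This follows from the uncentred medians of the arrays. With a common median absolute deviation the counts were 61 and 198, and medians 0.60 (one-carbon), 0.25 (purine), 0.29 (amino acid synthesis), 0.88 (vitamin B6), -0.11 (cytosolic ribosomal proteins) and 0.58 (stress). SHM2 became 1.34, ADE3 0.89, ADE17 0.19, HIS4 0.91, LYS12 -0.0715, LEU1 0.25, SER3 -0.73, LEU2 0.29 and XBP1 0.042; the cause was not tested. Leaving out 1 BY4741 replicate gave 232 to 635 genes at least 1 above and 631 to 778 at least 1 below, since 1 array is easier to exceed than both. Medians ran from -0.38 to 0.13 (purine), 0.16 to 0.44 (one-carbon) and -0.093 to 0.60 (cytosolic ribosomal proteins). Single genes ran from -0.14 to 0.90 (SHM1), -0.44 to 0.62 (ARG1), -0.14 to 1.09 (SNZ3), -0.18 to 1.80 (PGK1), -1.16 to 0.44 (SHM2), -1.0025 to 0.93 (ADE3), -0.28 to 0.11 (HIS4), -0.10 to 0.97 (SER3), -0.54 to 0.41 (LEU2) and -0.65 to 3.10 (RPL39). The gcn4 and BY4741 arrays share only replicate number 1, so the replicate block, fitted over 3168 genes, rests on BY4741 replicate 1 and called 0 genes. It gave medians of 0.44 (one-carbon, 13 genes), 0.35 (purine, 11), 0.25 (amino acid synthesis, 49) and -0.26 (iron, 15). The others were 1.97 (vitamin B6, 4 genes), 0.40 (sulfate and methionine, 7), -0.094 (cytosolic ribosomal proteins, 130) and 0.42 (stress, 18). Only genes with a value on all 8 arrays were kept, as in the fit with title wording as a block. Single genes were SHM2 0.44, ADE3 0.93, HIS4 0.11, SER3 -0.10, LEU2 0.41 and RPL39 -0.65. As a check of pairing, replicate 1 minus 2 of bas1 correlated with that of bas2 at r = 0.542 over 3260 genes. The numbers follow the wording of the titles except for shm2; r was 0.636 between gcn4 and BY4741 replicate 1 and 0.625 between bas1 and bas2 replicate 1, and what the wording stands for is not stated. With title wording as a block, chosen after seeing the data, 0 genes passed, and the medians were 0.048 (purine), 1.25 (vitamin B6) and 0.45 (stress), with ADE3 0.20 and XBP1 0.62. Without spots at ratio 1 the purine median was 0.0006. With the length curve removed it was 0.11, ADE3 0.31 and HIS4 0.27. For genes with a value on all 8 arrays, a setting chosen after seeing the data, 58 genes lay at least 1 above and 138 below, and the vitamin B6 median was 1.33, with fewer genes in the comparison. Promoter motifs were not run.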

Other observations

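Ribosome biogenesis genes, whose products assemble ribosomal subunits, lay on both sides of the parent, 9 of 35 (25.7%) above both BY4741 arrays and 12 (34.3%) below. These shares were near the 29.4% and 33.7% over all genes, and the median difference was -0.04. NOP56, a core protein of box C/D snoRNPs, stood at 2.14 in gcn4 against 0.42 and -0.12, and DBP2, a DEAD-box RNA helicase, at -3.20 against -1.08 and -0.95. Both were separated from the parent spot by spot. Of 33 proteasome genes, 13 lay above both and 6 below, with a median difference of -0.045 from replicate 1 and 0.67 from replicate 3, so the sign of the joint median, 0.33, rested on replicate 3. The median of the ribosome biogenesis genes also changed sign between the parent arrays, from -0.55 to 0.15. Of 16 glycolysis genes 8 lay above both and 0 below, with CDC19, pyruvate kinase, at 0.26 against -1.32 and 0.15, but CDC19's gcn4 spots were among those at a ratio within 0.003 of 1. Of 16 citric acid cycle genes 5 lay above both and 2 below. For 17 aminoacyl-tRNA synthetase genes it was 3 and 3, for 9 genes of glutamate, glutamine, proline and asparagine 4 and 4, and for 11 regulators of amino acid genes 2 and 5.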
